A study of Mus musculus with 4 samples.

Results

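Genes of fat cells and of lipid storage were followed in host tissue at porous scaffolds with a collagen or a PMB coating. The members were 45 genes chosen by name for their known roles: adipokines, lipid droplet proteins, enzymes that make or break down triglyceride, and regulators of fat cell formation. The rule used no measured value, although earlier results of these data were known when it was set. Of the 45, 39 had a value on all 4 arrays, out of 11842 named genes that did, and 22 of the 39 rested on a single complete array entry and 17 on several.

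The scaffolds were porous polyethylene, named polystyrene in the title of the deposited record. They had been kept for 7 days under the back skin of male C57BL/6 mice aged 8 weeks, with no transgene or treatment given in the labels, with 1 mouse for each kind of scaffold and no statement of whether these were separate mice. Collagen is a bioactive coating that cells attach to. PMB, a copolymer of 2-methacryloyloxyethyl phosphorylcholine (MPC) and n-butyl methacrylate, is a bio-inert coating that resists protein and cells, and the record's titles call it MPC. A non-coated scaffold gave the reference, which was the same extract for both coatings. Tissue next to each scaffold was cut out by laser, so an extract held RNA of mixed cell types, and fewer fat cells and less RNA per fat cell cannot be told apart. Each array carried 825 ng of labelled RNA of a coated and of the non-coated scaffold. The coated extract was in Cy5 on replicate 1 and in Cy3 on replicate 2, so both arrays of a coating held the same extracts and counted as 1 replicate. All values are log2 ratios of coated over non-coated unless stated, and ± gives their SD over both arrays of a coating. This SD is an error of labelling and hybridization that leaves out how mice differ. With 1 extract per scaffold no test between scaffolds was possible and no p-value is given. A gene was called higher or lower where the mean of both arrays reached 2-fold (1 on the log2 scale) and neither array had the opposite sign.

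White fat cells store triglyceride in a single large droplet that is coated by perilipins and Cidec, and they secrete the hormones adiponectin, leptin and resistin. They take up fatty acids that lipoprotein lipase frees from blood lipids, make others from glucose, join them to glycerol phosphate, and release them again by lipolysis. The nuclear receptor PPARγ and the factor C/EBPα switch on much of this program. A layer of fat lies below the dermis and, in the mouse, close to the thin skin muscle.

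The promoters of a few members are printed because both transcription factors act on genes of this kind and because these members were among those called. The windows hold 250 bases before and 50 after the annotated start, from RefSeq on GRCm38.p6, written 5′ to 3′ on the gene's strand. Capitals mark matches to the C/EBP letters TTGCNNAA on either strand. Those of leptin (chr6:29059971-29060270, plus strand), perilipin (Plin1, chr7:79732727-79733026, minus strand), one start of Cidec (chr6:113434715-113435014, minus strand) and phosphoenolpyruvate carboxykinase (Pck1, chr2:173152823-173153122, plus strand) read as follows.
Lep: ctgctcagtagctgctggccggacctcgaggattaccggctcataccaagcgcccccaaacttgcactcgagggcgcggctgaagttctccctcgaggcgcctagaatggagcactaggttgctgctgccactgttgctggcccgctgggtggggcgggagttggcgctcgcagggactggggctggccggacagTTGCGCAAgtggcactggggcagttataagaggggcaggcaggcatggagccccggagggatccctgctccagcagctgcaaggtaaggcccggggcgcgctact
Plin1: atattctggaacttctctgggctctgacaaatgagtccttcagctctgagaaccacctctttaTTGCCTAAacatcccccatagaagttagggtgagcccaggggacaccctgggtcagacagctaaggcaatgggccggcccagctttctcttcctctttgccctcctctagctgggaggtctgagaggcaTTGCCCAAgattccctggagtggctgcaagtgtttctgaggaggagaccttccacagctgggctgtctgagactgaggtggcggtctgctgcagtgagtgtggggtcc
Cidec: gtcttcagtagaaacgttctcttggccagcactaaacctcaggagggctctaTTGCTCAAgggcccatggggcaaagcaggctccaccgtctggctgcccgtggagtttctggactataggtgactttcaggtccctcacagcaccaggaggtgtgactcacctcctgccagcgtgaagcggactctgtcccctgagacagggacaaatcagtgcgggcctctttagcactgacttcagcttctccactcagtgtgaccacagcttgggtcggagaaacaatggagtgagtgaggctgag
Pck1: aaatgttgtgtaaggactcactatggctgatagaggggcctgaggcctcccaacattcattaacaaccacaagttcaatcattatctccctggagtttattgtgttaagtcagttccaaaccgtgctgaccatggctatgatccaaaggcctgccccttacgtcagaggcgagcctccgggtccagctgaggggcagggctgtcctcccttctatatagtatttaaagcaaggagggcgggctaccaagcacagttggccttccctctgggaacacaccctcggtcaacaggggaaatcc

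The leptin window held TTGCGCAA 55 bases upstream of the start, and the Cidec window TTGCTCAA 198 bases upstream. The window of the other annotated Cidec start (chr6:113435711-113436010, minus strand) held no match and is not printed. The Plin1 window held TTGCCTAA 187 and TTGCCCAA 58 bases upstream. The Pck1 window held no match, which says only that these letters are not in it. Of the 45 members, 31 had at least 1 window, 42 windows in all, among them 12 of the 20 members called in any comparison. The C/EBP letters were in 5 of the 42 windows (11.9%), those of Lep, Plin1, Cidec, Pparg and Gpam, beside 10.8% of all 32851 windows. The nuclear receptor letters AGGTCA were in 12 windows (28.6%) beside 16.3%, and the E-box CACGTG in 5 (11.9%) beside 7.15%, with both strands searched. Leptin, Plin1 and Cidec were all called higher with PMB, whereas Pparg was called in no comparison and Gpam had values on only 2 of the 4 arrays. Of the members with AGGTCA, Cd36 alone was called in any comparison, and of those with the E-box, Mlxipl alone, both lower with collagen. A link between matches and calls was not tested. A match is a description of the sequence and not a binding site.

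Several fat genes were lower than at the non-coated scaffold with the collagen coating, and several were higher with the PMB coating. Pck1 and Pnpla3 were among both. With collagen, 9 of the 39 members were called lower and 0 higher, while 3.38% of all genes were lower and 2.21% higher. With PMB, 13 of the 39 were called higher and 0 lower, while 0.616% of all genes were higher and 1.4% lower. The median member was at -0.25 for collagen and at 0.54 for PMB, beside 0.036 and 0.022 for the median of all 11842 genes. Both coatings were set against the same non-coated extract, so any trait of that extract enters both values of a gene. In the same extracts 18 of 18 skeletal muscle markers were called lower with collagen and 16 of 18 with PMB, and their part in the fat gene values was not tested. Between the coatings, taken within each dye orientation, 17 members were called lower at the collagen coating and 0 higher. Over all genes 3.67% were lower and 2.74% higher in this comparison, and the medians were -0.89 for the members and 0.0012 for all genes.

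The SD of the 2 arrays over the members was between 0.016 and 0.40 for collagen (median 0.14) and between 0.0085 and 0.42 for PMB (median 0.14). Most members kept the sign of their ratio across the dye swap: 22 were below 0 and 11 above 0 on both collagen arrays, and 33 were above 0 and 5 below 0 on both PMB arrays. Most of all 11842 genes kept it too. Of these, 3793 were below 0 and 4728 above 0 on both collagen arrays, and 4599 were above 0 and 3976 below 0 on both PMB arrays.

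**Figure D1:**
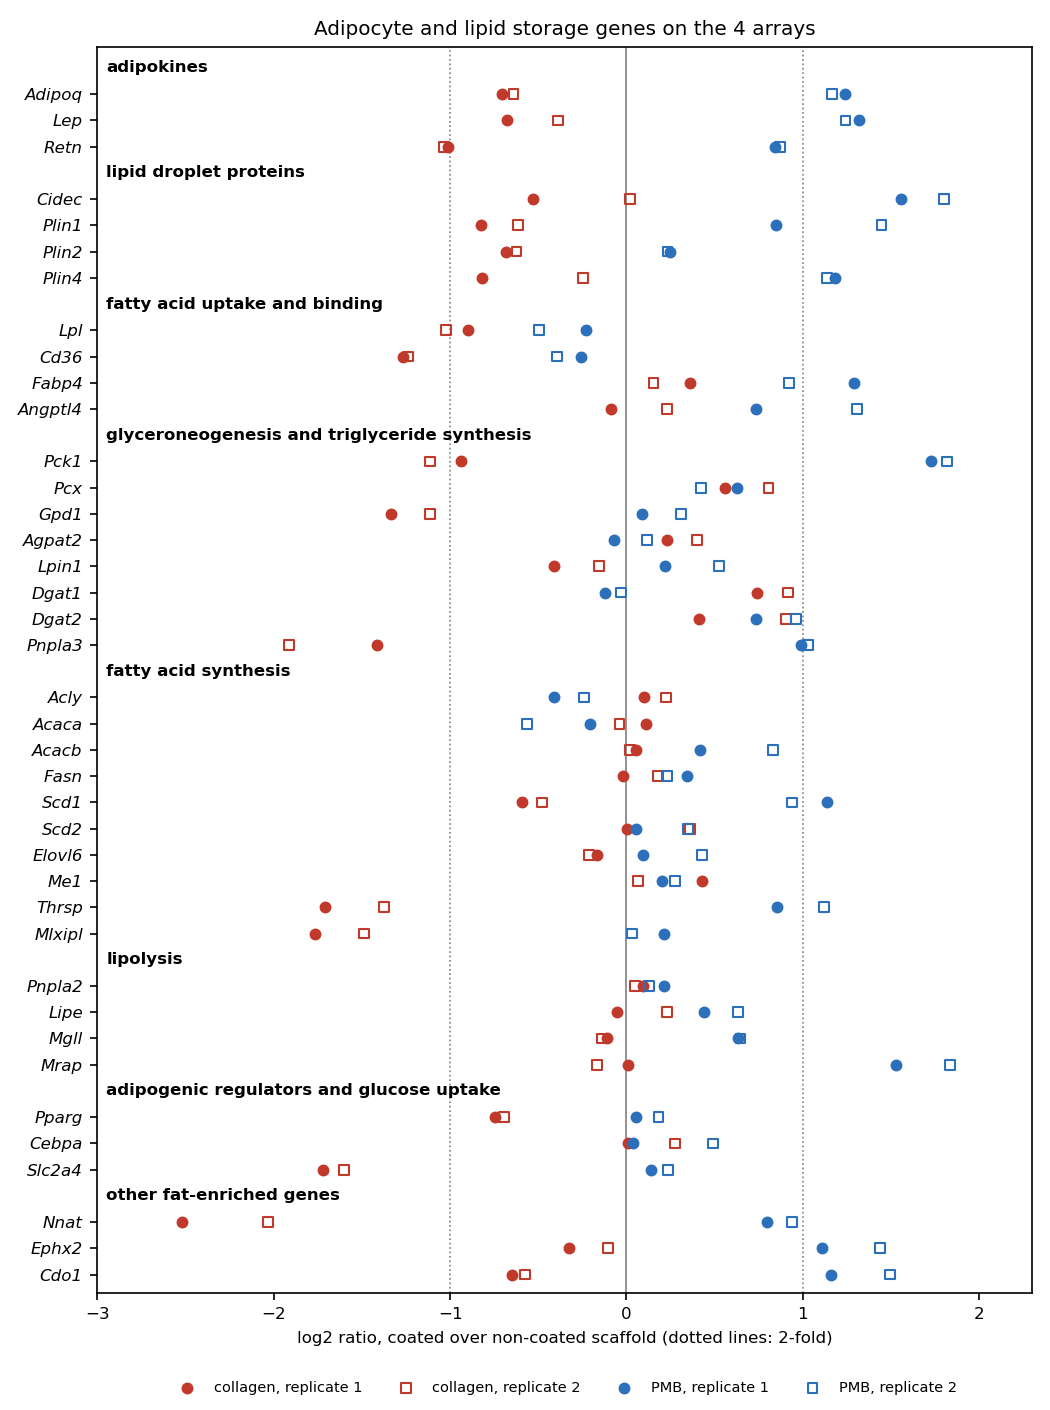
The log2 ratio of coated over non-coated scaffold is on the horizontal axis and the 39 measured members are on the vertical axis, grouped by role, with collagen in red and PMB in blue, replicate 1 as filled circles and replicate 2 as open squares. For adipokines, lipid droplet proteins and other fat-enriched genes the blue symbols lie to the right of the red ones in every row, whereas most enzymes of fatty acid synthesis lie close to 0 for both coatings.

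The adipokines, hormones made by fat cells, were below the non-coated level on both collagen arrays and above it on both PMB arrays. Adiponectin (Adipoq), an insulin-sensitizing hormone, was at -0.71 and -0.64 on the collagen arrays and 1.24 and 1.17 on the PMB arrays. Its means were -0.67 ± 0.047 with collagen and 1.20 ± 0.053 with PMB, where it ranked 24 of 11842 genes from the top. Leptin (Lep), the satiety hormone, was at -0.68 and -0.39 on the collagen arrays and 1.32 and 1.24 on the PMB arrays over its 4 complete entries. For both hormones every collagen array was below 0 and every PMB array was above 2-fold. Resistin (Retn), a fat cell hormone in mice, was at -1.01 and -1.03 on the collagen arrays and 0.84 and 0.87 on the PMB arrays. It was called lower with collagen, at -1.02 ± 0.016, and stood just short of the 2-fold line with PMB, at 0.86 ± 0.022. Between the coatings the 3 differed by similar sizes: -1.88 ± 0.1 for Adipoq, -1.81 ± 0.26 for Lep and -1.88 ± 0.037 for Retn, or 3.68-, 3.51- and 3.68-fold lower with collagen. No entry of the array was named for adipsin (Cfd) in the annotation used.

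Of the 4 measured lipid droplet genes, 3 were called higher with PMB and 0 were called with collagen. Cidec, which makes lipid droplets fuse, was at -0.53 and 0.02 on the collagen arrays and 1.56 and 1.80 on the PMB arrays, and its PMB mean of 1.68 ± 0.17 (3.20-fold) ranked 9 from the top. Its collagen arrays differed in sign, so the collagen mean of -0.25 ± 0.39 was smaller than its SD. Plin1, the perilipin that gates lipolysis in fat cells, was at -0.83 and -0.62 on the collagen arrays and 0.85 and 1.45 on the PMB arrays. Its PMB mean was 1.15 ± 0.42, and replicate 1 alone was below 2-fold. Plin4, a perilipin of small droplets in white fat, was at -0.82 and -0.25 on the collagen arrays and 1.18 and 1.14 on the PMB arrays, with means of -0.53 ± 0.40 and 1.16 ± 0.031. Plin2, the perilipin found in most cell types including lipid-laden macrophages, was at -0.69 and -0.62 on the collagen arrays and 0.25 and 0.23 on the PMB arrays and was called with neither coating. Its difference between the coatings, -0.89 ± 0.052, was smaller than those of Cidec (-1.93 ± 0.22), Plin1 (-1.87 ± 0.27) and Plin4 (-1.69 ± 0.43). Cidea, a relative of Cidec, had a value only on collagen replicate 2, at -0.53, and on PMB replicate 1, at -0.09.

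**Figure D2:**
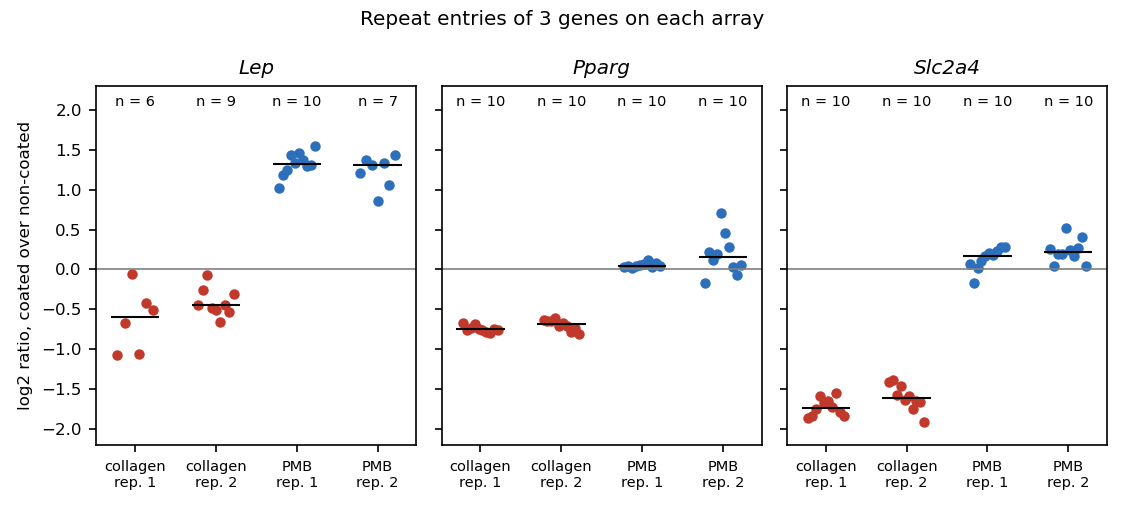
Each point is 1 of the 10 array entries of Lep, Pparg or Slc2a4 on an array, the vertical axis is the log2 ratio of coated over non-coated scaffold, bars are medians and n is the number of entries with a value. All entries of Lep were below 0 on the collagen arrays and above 0 on the PMB arrays, and the entries of Pparg spread more on PMB replicate 2 (SD 0.26) than on PMB replicate 1 (SD 0.029).

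The 10 entries of leptin served as a check within arrays. Values were present for 6 and 9 of them on collagen replicates 1 and 2 and for 10 and 7 on PMB replicates 1 and 2. On collagen replicate 1 they ranged from -1.07 to -0.059, so the spread between entries (SD 0.39) exceeded the SD of the 2 arrays. Entries of a gene may be repeat spots of 1 probe and are not independent measurements.

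Genes of fatty acid uptake did not all follow the adipokines. Lipoprotein lipase (Lpl), which frees fatty acids from circulating triglyceride, was at -0.90 and -1.02 on the collagen arrays and -0.23 and -0.50 on the PMB arrays. The fatty acid transporter Cd36 was at -1.27 and -1.24 on the collagen arrays and -0.26 and -0.40 on the PMB arrays and was called lower with collagen, at -1.26 ± 0.02. Both were below 0 on all 4 arrays. Fabp4, the fatty acid binding protein of fat cells and macrophages, was at 0.36 and 0.15 on the collagen arrays and 1.29 and 0.92 on the PMB arrays, and it was above 0 on all 4 arrays. Angptl4, a secreted inhibitor of lipoprotein lipase, was at -0.09 and 0.23 on the collagen arrays and 0.73 and 1.31 on the PMB arrays. Fabp4 and Angptl4 were called higher with PMB, at 1.10 ± 0.26 and 1.02 ± 0.41, with 1 array of each below 2-fold. With entries averaged, none of the 4 measured genes of this group differed 2-fold between the coatings, where they lay between -0.95 and -0.60. The lower entry of Cd36, at -1.03, would alone have passed the 2-fold rule. Acsl1, which activates fatty acids, had no named entry.

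Among the enzymes that make glycerol phosphate and triglyceride, 3 of the 8 measured were called lower with collagen and 2 higher with PMB. Pck1, which makes the glycerol backbone from pyruvate in fat cells, was at -0.94 and -1.11 on the collagen arrays and 1.73 and 1.82 on the PMB arrays. Its PMB mean of 1.77 ± 0.061 (3.42-fold) ranked 4 from the top of all genes and was the highest of any member, and its collagen mean was -1.03 ± 0.12, with replicate 1 alone short of 2-fold. It was 6.96-fold lower with collagen than with PMB (-2.80 ± 0.18). Pnpla3, a lipid droplet acylhydrolase grouped here with triglyceride synthesis, was at -1.41 and -1.91 on the collagen arrays and 0.99 and 1.03 on the PMB arrays. Its means were -1.66 ± 0.35 with collagen and 1.01 ± 0.028 with PMB, and both collagen arrays were more than 2-fold lower, while the PMB arrays lay on either side of 2-fold higher. Gpd1, which makes glycerol phosphate from a product of glycolysis and is abundant in muscle too, was at -1.34 and -1.11 on the collagen arrays and 0.09 and 0.31 on the PMB arrays. It was called lower with collagen, at -1.23 ± 0.16, and was at 0.20 ± 0.15 with PMB.

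The acyltransferases Dgat1, Dgat2 and Agpat2 did not follow Pck1, whereas Lpin1 had the same signs as Pck1 at a smaller size. Dgat1, which adds the final acyl chain, was at 0.74 and 0.92 on the collagen arrays and -0.12 and -0.03 on the PMB arrays. It was the member furthest in the opposite direction, 0.91 ± 0.06 between the coatings, short of 2-fold. Dgat2, which catalyses the same step, was at 0.41 and 0.90 on the collagen arrays and 0.74 and 0.96 on the PMB arrays, above 0 on all 4 arrays, and its coatings differed by -0.19 ± 0.19. Agpat2, an earlier acyltransferase, was at 0.31 ± 0.12 for collagen and 0.02 ± 0.13 for PMB, and Lpin1, the phosphatidate phosphatase, at -0.28 ± 0.18 and 0.37 ± 0.22. Pyruvate carboxylase (Pcx) was above 0 on all 4 arrays, at 0.68 ± 0.17 and 0.52 ± 0.15. Gpam, the first acyltransferase, had values on replicate 1 of each coating only, at -0.36 with collagen and -0.16 with PMB.

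Most enzymes of fatty acid synthesis stayed near the non-coated level. Of the 10 measured genes of this group, 2 were called lower with collagen, 1 higher with PMB and 3 lower between the coatings. ATP citrate lyase (Acly), which makes cytosolic acetyl-CoA, was at 0.10 and 0.22 on the collagen arrays and -0.41 and -0.24 on the PMB arrays. Acetyl-CoA carboxylase (Acaca) was at 0.04 ± 0.11 for collagen and -0.39 ± 0.25 for PMB, and fatty acid synthase (Fasn), which builds the chain, at 0.08 ± 0.14 and 0.29 ± 0.079. The 2 entries of Fasn had opposite signs with collagen, at -0.15 and 0.31. The desaturase Scd2, the elongase Elovl6 and malic enzyme (Me1) lay within 0.26 of 0 with either coating. Acacb, the carboxylase of the mitochondrial surface, was at 0.05 and 0.02 on the collagen arrays and 0.42 and 0.83 on the PMB arrays.

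The members of this group that were called were a desaturase and both genes that control lipogenesis. Scd1, which makes oleate and is the main desaturase of white fat, was at -0.60 and -0.48 on the collagen arrays and 1.14 and 0.94 on the PMB arrays, with a PMB mean of 1.04 ± 0.14 and 1 array below 2-fold. Thrsp (Spot14), a lipogenesis factor induced by carbohydrate and thyroid hormone, was at -1.71 and -1.37 on the collagen arrays and 0.86 and 1.12 on the PMB arrays. With collagen it was called lower, at -1.54 ± 0.24, and with PMB it stood at 0.99 ± 0.19, a value that missed the 2-fold line by a small margin. Mlxipl (ChREBP), the glucose-sensing factor that drives lipogenic genes, was at -1.77 and -1.49 on the collagen arrays and 0.21 and 0.03 on the PMB arrays, lower with collagen (-1.63 ± 0.20) and near the non-coated level with PMB (0.12 ± 0.13). Between the coatings Thrsp was 5.78-fold lower with collagen, and Fasn, an enzyme of the pathway it regulates, differed by -0.21 ± 0.22.

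Lipolysis genes were above 0 with PMB and near 0 with collagen. Mrap, the accessory protein of the corticotropin receptor that is abundant in fat cells, was at 0.008 and -0.17 on the collagen arrays and 1.53 and 1.83 on the PMB arrays. Its PMB mean of 1.68 ± 0.21 (3.21-fold) ranked 8 from the top, and it was the only gene of the 4 measured in this group to be called. The triglyceride lipase Pnpla2 was at 0.07 ± 0.034 for collagen and 0.17 ± 0.058 for PMB. Its 2 entries gave -0.08 and 0.23 with collagen and 0.08 and 0.26 with PMB, further apart than these SDs. Hormone-sensitive lipase (Lipe), which acts next, was at -0.06 and 0.23 on the collagen arrays and 0.44 and 0.63 on the PMB arrays. Monoglyceride lipase (Mgll) was at -0.11 and -0.14 on the collagen arrays and 0.64 and 0.65 on the PMB arrays, but its 2 complete entries gave PMB means of 0.42 and 0.86, far apart beside an array SD of 0.0085. Between the coatings these entries were at -0.42 and -1.11, so the lower alone would have passed the 2-fold rule. The glycerol channel Aqp7 had values on PMB replicate 1 only, 0.72 and 0.86 for its 2 entries, and the adrenergic receptor Adrb3 had no named entry.

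The regulators of fat cell formation, Pparg and Cebpa, were called in no comparison when their entries were averaged. Pparg was at -0.74 and -0.69 on the collagen arrays and 0.05 and 0.18 on the PMB arrays over 10 entries, and its means of -0.72 ± 0.036 and 0.12 ± 0.09 were both short of 2-fold. Between the coatings its mean was -0.84 ± 0.055, while its entries ranged from -1.11 to -0.58, so the lowest entry alone would have passed the 2-fold rule. Cebpa was at 0.0075 and 0.27 on the collagen arrays and 0.04 and 0.49 on the PMB arrays, and its coatings differed by -0.12 ± 0.13. Slc2a4, the insulin-responsive glucose transporter of fat and muscle, was at -1.72 and -1.60 on the collagen arrays and 0.14 and 0.24 on the PMB arrays over 10 entries. It was called lower with collagen, at -1.66 ± 0.087 (3.16-fold), and was close to the non-coated level with PMB.

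The remaining fat-enriched members held the lowest value of all. Neuronatin (Nnat), an imprinted proteolipid of neural tissue that fat tissue also expresses, was at -2.52 and -2.03 on the collagen arrays and 0.80 and 0.94 on the PMB arrays. It was 4.84-fold lower with collagen (-2.28 ± 0.34), and the difference between the coatings of -3.14 ± 0.25 (8.84-fold) ranked 11 from the bottom of all genes. The soluble epoxide hydrolase Ephx2, which opens fatty acid epoxides, was at -0.33 and -0.10 on the collagen arrays and 1.11 and 1.44 on the PMB arrays. Cysteine dioxygenase (Cdo1), which oxidizes cysteine on the way to taurine, was at -0.65 and -0.58 on the collagen arrays and 1.16 and 1.5 on the PMB arrays. Ephx2 and Cdo1 were called higher with PMB, at 1.27 ± 0.24 and 1.33 ± 0.24, and neither was called with collagen.

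**Figure D3:**
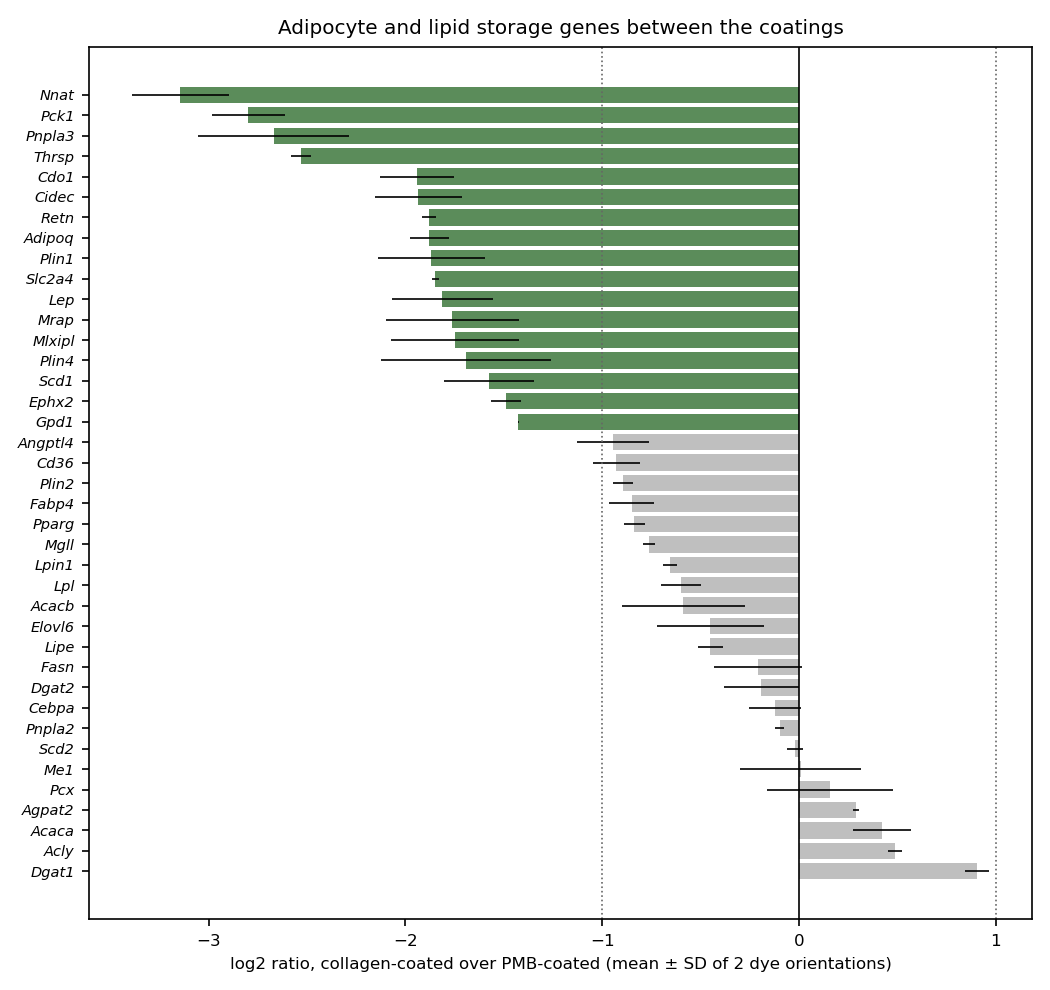
Bars give the mean log2 ratio of the collagen-coated over the PMB-coated scaffold for the 39 measured members and error bars the SD of the 2 dye orientations, with green for members at least 2-fold apart and dotted lines at 2-fold. The 17 green bars all point to lower values with collagen, from -3.14 for Nnat to -1.43 for Gpd1, and 6 bars lie to the right of 0, led by Dgat1 at 0.91.

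Around the 2-fold line between the coatings, Gpd1 (-1.43 ± 0.0028) was the last member called, and Angptl4 (-0.95 ± 0.18), Cd36 (-0.93 ± 0.12) and Plin2 (-0.89 ± 0.052) were the nearest not called on the lower side. On the higher side Dgat1 (0.91 ± 0.06) was the nearest. Over the members the SD of the 2 dye orientations was at most 0.43. The call rule asks for a mean of at least 1 in size. That the difference exceeded the SD in each of the 17 members called is thus no further support.

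Further fat cell genes outside the member list were mixed with collagen and mostly above 0 with PMB. Of 20 further adipocyte-enriched genes, 15 were measured, with medians of -0.10 for collagen and 0.42 for PMB. With collagen 4 were lower and 1 higher (26.7% and 6.67%, beside 3.38% and 2.21% of all genes). With PMB 3 were higher (20.0%, beside 0.616%) and 0 lower, and 13 were above 0 on both arrays. Between the coatings 6 were lower (40.0%, beside 3.67%) and 0 higher, with a median of -0.91. Cyp2e1, a cytochrome of liver and fat, was at -2.74 and -2.85 on the collagen arrays and 1.51 and 1.51 on the PMB arrays, the widest gap of the list. Ces1d, a carboxylesterase that acts on triglyceride, was at -2.06 and -2.0 on the collagen arrays and 1.20 and 1.10 on the PMB arrays. Trarg1, a partner of glucose transporter vesicles, was above 0 on all 4 arrays, at 0.85 ± 0.095 and 1.34 ± 0.065, and chemerin (Rarres2) was called higher with collagen, at 1.03 ± 0.12. Carbonic anhydrase Car3, abundant in both fat and muscle, was at -1.53 ± 0.061 and 0.42 ± 0.13. Slc7a10 was at -1.05 ± 0.013 and 0.81 ± 0.0099, with -1.87 ± 0.023 between the coatings.

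Lists of the wider pathway had medians nearer to those of all genes than the members had. In each, a larger share than the 3.38% of all genes was lower with collagen: 10.5% of further triglyceride storage genes, 16.7% of further transcription factors and 13.3% of fatty acid oxidation genes, each share being 2 genes. Between the coatings the same shares were lower, again 2 genes in each list, beside 3.67% of all genes, and the medians were 0.020, -0.0013 and -0.15. Of 25 further triglyceride storage genes 19 were measured, with medians of 0.087 and 0.0040. With collagen 2 were lower, the lipoprotein receptor Vldlr (-1.78 ± 0.039) and the droplet protein Fitm1 (-2.57 ± 0.046), and with PMB 1 was lower (5.26%, beside 1.4% of all genes), Fitm1 (-1.41 ± 0.25), a gene known chiefly from skeletal muscle. Of 14 further adipogenic transcription factors 12 were measured, with medians of 0.16 and 0.20, and Klf4 (-1.42 ± 0.019) and Ebf2 (-1.15 ± 0.26) were lower with collagen and 0 were called with PMB. Of 18 fatty acid oxidation genes 15 were measured, with medians of -0.12 and -0.06. There, Cpt1b and Fabp3, both of muscle, were lower with collagen at -1.09 ± 0.17 and -1.86 ± 0.12, and 0 were called with PMB. Between the coatings the lower genes were Vldlr (-2.36 ± 0.08), Ebf2, Pdk4 (-1.695 ± 0.079), Fitm1, Klf4 and Fabp3. Vldlr, Ebf2 and Pdk4 were below 0 on both collagen arrays and above 0 on both PMB arrays. Fitm1, Klf4 and Fabp3 were below 0 on all 4 arrays. The storage gene Fabp5 was higher, at 1.47 ± 0.071 (5.26% of its list, beside 2.74% of all genes).

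Thermogenic and precursor genes were examined as neighbours of white fat. Of 7 thermogenic genes 4 were measured and 3 were lower with collagen (75.0%, beside 3.38% of all genes). These were Cox8b (-3.50 ± 0.21) and Cox7a1 (-1.91 ± 0.14), respiratory chain subunits shared by brown fat and muscle, and Dio2 (-1.81 ± 0.054), the deiodinase. With PMB 0 of the 4 were called and all 4 were below 0 on both arrays. Between the coatings 3 were lower (75.0%, beside 3.67% of all genes) and 0 higher. Of 7 preadipocyte and stromal genes 6 were measured. With collagen 2 were lower and 1 higher (33.3% and 16.7%, beside 3.38% and 2.21% of all genes). With PMB 1 was higher (16.7%, beside 0.616%) and 0 lower. Between the coatings 4 were lower (66.7%, beside 3.67%), among them Cd34 at -1.23 ± 0.44, and 0 higher. Dlk1, which restrains fat cell formation, and Dpp4, a marker of interstitial progenitors, were lower with collagen at -2.33 ± 0.15 and -1.44 ± 0.099, the mural and stromal receptor Pdgfrb was higher at 1.01 ± 0.14, and Pi16, another progenitor marker, was higher with PMB at 1.46 ± 0.25.

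**Figure D4:**
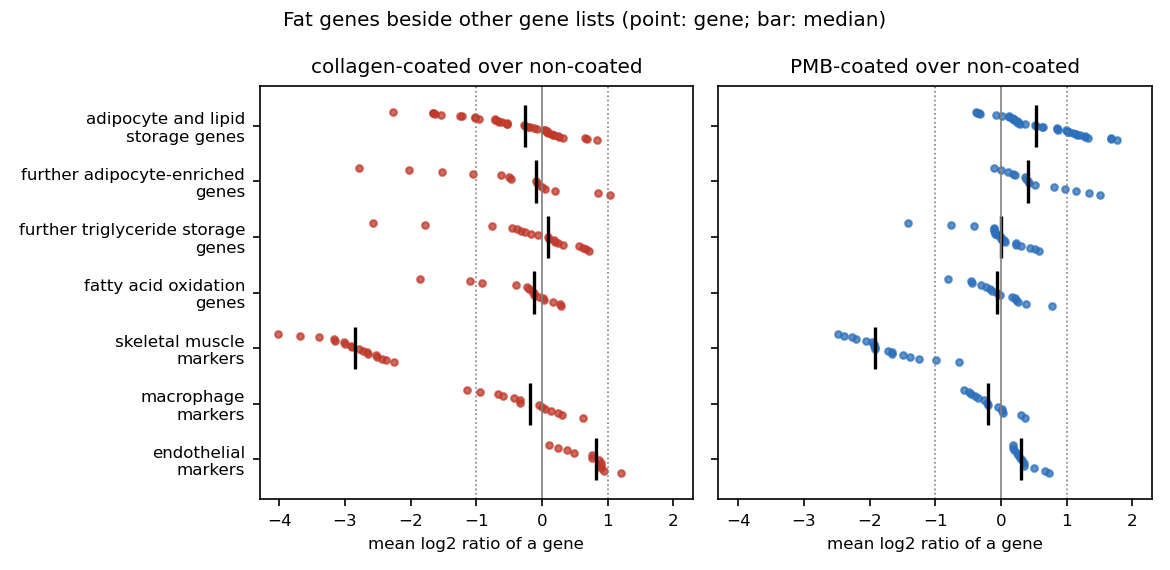
Each point is the mean log2 ratio of a gene over the 2 arrays, with collagen-coated over non-coated on the left and PMB-coated over non-coated on the right, black bars are list medians and dotted lines mark 2-fold. All but the lowest fat gene with collagen (Nnat, at -2.28) lie right of every skeletal muscle marker in that panel, and the fat gene median passes from -0.25 on the left to 0.54 on the right while the muscle median stays below 0, at -2.84 and -1.92.

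Marker lists of other cell types in the tissue gave the following values beside the fat genes. All 18 skeletal muscle markers were measured: 18 were lower with collagen (median -2.84, range -4.02 to -2.26) and 16 with PMB (median -1.92, range -2.48 to -0.64). Of 16 macrophage markers 14 were measured, with medians of -0.19 and -0.20, and 1 was lower with collagen and 0 with PMB. All 12 endothelial markers were above 0 on all arrays of both coatings, with medians of 0.82 and 0.31 and 1 called higher with collagen. Of 13 sebaceous gland and epidermis markers 3 were measured, all between -0.33 and 0.07. The values are ratios, so summed levels and markers at 0 cannot be given, and the part of these cell types in the fat gene values was not tested.

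Some members are known from other cells, and their values are set apart here. The 8 measured members that muscle also expresses (Lpl, Cd36, Slc2a4, Acacb, Gpd1, Lpin1, Pnpla2 and Angptl4) had medians of -0.62 with collagen and 0.19 with PMB, with 3 lower with collagen and 1 higher with PMB. Without them the PMB median of the members was 0.85 in place of 0.54. The 6 that macrophages also express (Lpl, Cd36, Fabp4, Plin2, Pparg and Angptl4) had medians of -0.69 and 0.18. Without these the median between the coatings was -1.43 in place of -0.89. The defining markers of fat cells, of which Adipoq, Lep, Retn, Cidec and Plin1 were measured among 7, had medians of -0.67 and 1.20. Of these 5, 4 were called higher with PMB, 1 was called lower with collagen, and 5 were lower with collagen than with PMB (median -1.88). A value on every array was the condition for counting a gene as measured, and the markers Cfd and Adrb3 had no named entry.

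The arrays limited these values. Of the 43377 entries 51.6% had a value on all 4 arrays, between 52.3% and 60.5% per array, and the way 3 scans of each array were merged is not stated. Before the sign was turned, swapped arrays had a correlation of -0.79 for collagen and -0.66 for PMB over entries with 4 values. A single extract per scaffold leaves the difference between mice unknown, and the number of arrays limits the precision.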

How the data were processed

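Spots of 4 two-colour whole mouse genome oligonucleotide arrays were quantified and LOWESS-normalized by the authors, whose deposited table holds the log2 ratio Cy5/Cy3 of each entry. No further normalization was applied. Why some entries are empty is not stated. Replicate 2 carried the coated extract in Cy3, so its sign was turned. Symbols came from the platform annotation, which gave 33651 of 43377 entries 1 symbol, 56 several and 9670 none. Entries of a gene with 4 values were averaged. The comparison between coatings is the difference within each dye orientation. Members and lists were chosen with earlier results of these data known, and every member was accounted for. Up to 4 genes past the 2-fold rule were named from each further list by their largest size in any comparison (Trarg1, Rarres2 and Pdgfrb were added after their values were seen). The call rule was run on simulated data with noise set from the spread of the 2 collagen arrays. Those data held no difference between mice, so they say nothing about it. Alternatives were 1 dye orientation alone, other ways to combine entries, centring, scaling, other call rules and shorter member lists. Python 3.11.15, pandas 2.3.3, numpy 2.4.6 and matplotlib 3.10.9 were used.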

Additional observations from a re-analysis of the deposited data

Results flagged for a closer look

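For 22 members the 2 coatings lay on opposite sides of the non-coated level on every array, and these differences were not tested, since each scaffold gave a single extract. The share of all genes that did so was not counted, so this number only describes the members. On the log2 scale of collagen over PMB, the values were -3.14 for Nnat, -2.80 for Pck1, -2.67 for Pnpla3, -2.53 for Thrsp and -1.94 for Cdo1. Among hormone and droplet genes they were -1.88 for Retn, -1.88 for Adipoq, -1.87 for Plin1, -1.81 for Lep, -1.69 for Plin4 and -0.89 for Plin2. For transport and regulation they were -1.85 for Slc2a4, -1.75 for Mlxipl and -0.84 for Pparg. Among enzymes they were -1.57 for Scd1, -1.49 for Ephx2, -1.43 for Gpd1, -0.76 for Mgll, -0.66 for Lpin1 and -0.45 for Elovl6. The values of Acly at 0.49 and Dgat1 at 0.91 ran the other way. The shared reference cancels in these differences, whereas the side of the non-coated level on which each coating lay rests on that single extract.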

How the results depend on the processing

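No paired analysis was possible because both arrays of a coating hold the same extracts and no comparison comes from a test. No median changed sign under the alternatives run, and the counts moved as given here. With replicate 1 or 2 left out, 8 to 10 members were lower with collagen, 10 to 12 higher with PMB and 18 lower between the coatings, with medians from -0.41 to -0.17, from 0.44 to 0.63 and from -0.93 to -0.86. Of the 39 called values, 2 fell short of 2-fold without replicate 1 (Fabp4 and Scd1 with PMB) and 4 without replicate 2 (Pck1 with collagen, and Plin1, Angptl4 and Pnpla3 with PMB). Centring took Angptl4 and Pnpla3 with PMB below 2-fold, and scaling took Angptl4. Without replicate 1 the count of all genes higher with PMB was 154 in place of 73. With either replicate left out, 3.58% to 3.59% of all genes were lower with collagen and 0.616% to 1.3% higher with PMB. Between the coatings 3.94% to 4.04% of all genes were lower. With each array required to reach 2-fold, 8 members in place of 13 were higher with PMB, beside 0.388% of all genes. A 1.5-fold rule gave 3 higher (Pcx, Dgat1 and Dgat2) and 15 lower with collagen, beside 6.4% and 7.6% of all genes. With PMB it gave 19 higher and 0 lower, beside 4.32% and 4.48%. Between the coatings it gave 1 higher and 26 lower, beside 9.35% and 10.2%. With the entry of smallest dye difference, 1 member (Dgat1) was higher between the coatings, beside 3.09% of all genes, and the median was -0.95. In that setting 19 members in place of 17 were lower, with Cd36 and Mgll added, beside 3.84% of all genes. Without muscle-expressed members the PMB median was 0.85, and without macrophage-expressed members the median between the coatings was -1.43. The defining markers alone had medians of -0.67, 1.20 and -1.88.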
